A study of Mus musculus with 10 samples.

Results

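The transcripts of 10 bile acid transporters were examined in mouse liver collected 40 h after partial hepatectomy, an operation that removes most of the liver and drives the remaining hepatocytes back into the cell cycle. The members were the rows of the deposited expression table carrying the symbols Slc10a1, Slco1b2, Slco1a4, Slc10a2, Abcb11, Abcc2, Abcc3, Abcc4, Slc51a and Slc51b, and all 10 were found among 23847 gene loci. Values were available for 6 libraries, 3 from Arid1a Fl/Fl mice without a Cre transgene (WT) and 3 from Arid1a Fl/Fl; Alb-cre mice (KO). Both groups carried the floxed allele, were a C57/B6 and 129 mix and were at postnatal day 90. Alb-cre places Cre under the albumin promoter, which is active in hepatocytes, and deletes Arid1a, a gene whose product belongs to the SWI/SNF chromatin remodeller. Which other liver cells lost Arid1a was not measured here. The libraries from livers before hepatectomy (2 WT and 2 KO) were not analysed here. The comparison therefore asks how the transporters differ between WT and KO in regenerating liver, and gives no response to the operation itself. The labels do not say that each library came from a separate mouse, in which case p-values would reflect library-to-library spread that may be technical.

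Hepatocytes take bile acids up from portal blood across the basolateral membrane and secrete them across the canalicular membrane into bile, which returns them to the intestine. Sodium-dependent uptake runs through NTCP (Slc10a1), and sodium-independent uptake through members of the organic anion transporting polypeptide family. Export into bile runs through ATP-driven pumps, and a second set of exporters on the basolateral membrane can return bile acids to blood. The nuclear receptor FXR (Nr1h4) senses bile acids and controls several of these genes.

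Levels are given as FPKM (fragments per kilobase of transcript and per fixed number of mapped fragments), a unit that permits comparison between genes. Summed FPKM ranged from 409142 to 495209 per library, and relative depth, read from the spacing of low values, from 0.844 to 1.22 with WT replicate 1 as 1. Absolute depth is unknown. Arid1a was 8.68, 8.45 and 8.49 FPKM in the WT livers against 4.41, 5.57 and 6.15 in the KO livers, with no overlap (difference of mean log2(FPKM + 1) -0.59, SE 0.15; exact two-sided permutation p = 0.1, the smallest that 3 against 3 libraries can give; limma adjusted p = 0.207). All 10 hepatocyte markers were detected in all libraries, with a summed level of 43094 to 49404 FPKM in WT and 40487 to 49536 in KO. The 13 mitosis genes summed to 10.3 to 49.2 FPKM in WT, to 334.5 and 556.9 in KO replicates 1 and 3, and to 13.9 in KO replicate 2, which thus lay within the WT range. The median log2 difference (KO minus WT) of all 10956 genes tested was 0.15, so a difference of that size is the level of the table as a whole.

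One transporter fell in KO and none of the others passed the threshold, an adjusted p under 0.05 over all genes tested in limma. Slc10a2 was that gene, and Abcc4 stood at the other extreme with the highest difference of the 10. Of the members, 9 reached the mean of 1 FPKM required for testing. Thus 1 member of 9 was called, lower in KO, beside 0.119% of all genes tested (11 genes lower, and 2 genes or 0.0183% higher). Without adjustment, at p under 0.05, 2 members were lower (Slc10a2 and Abcc3) and 1 higher (Abcc4), against 3.99% and 11.2% of all genes. Abcc4 entered the test only through its KO libraries, so nothing is read from the count of higher members. The 2 genotypes were fully separated for 4 members, lower in KO for Slc10a2 and Abcc3 and higher for Abcc4 and Slc51a. Slc51a was not tested, which leaves 2 lower and 1 higher among the 9 tested members. Among all genes tested, 22.1% were separated in this way, 5.44% lower and 16.7% higher.

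**Figure D1:**
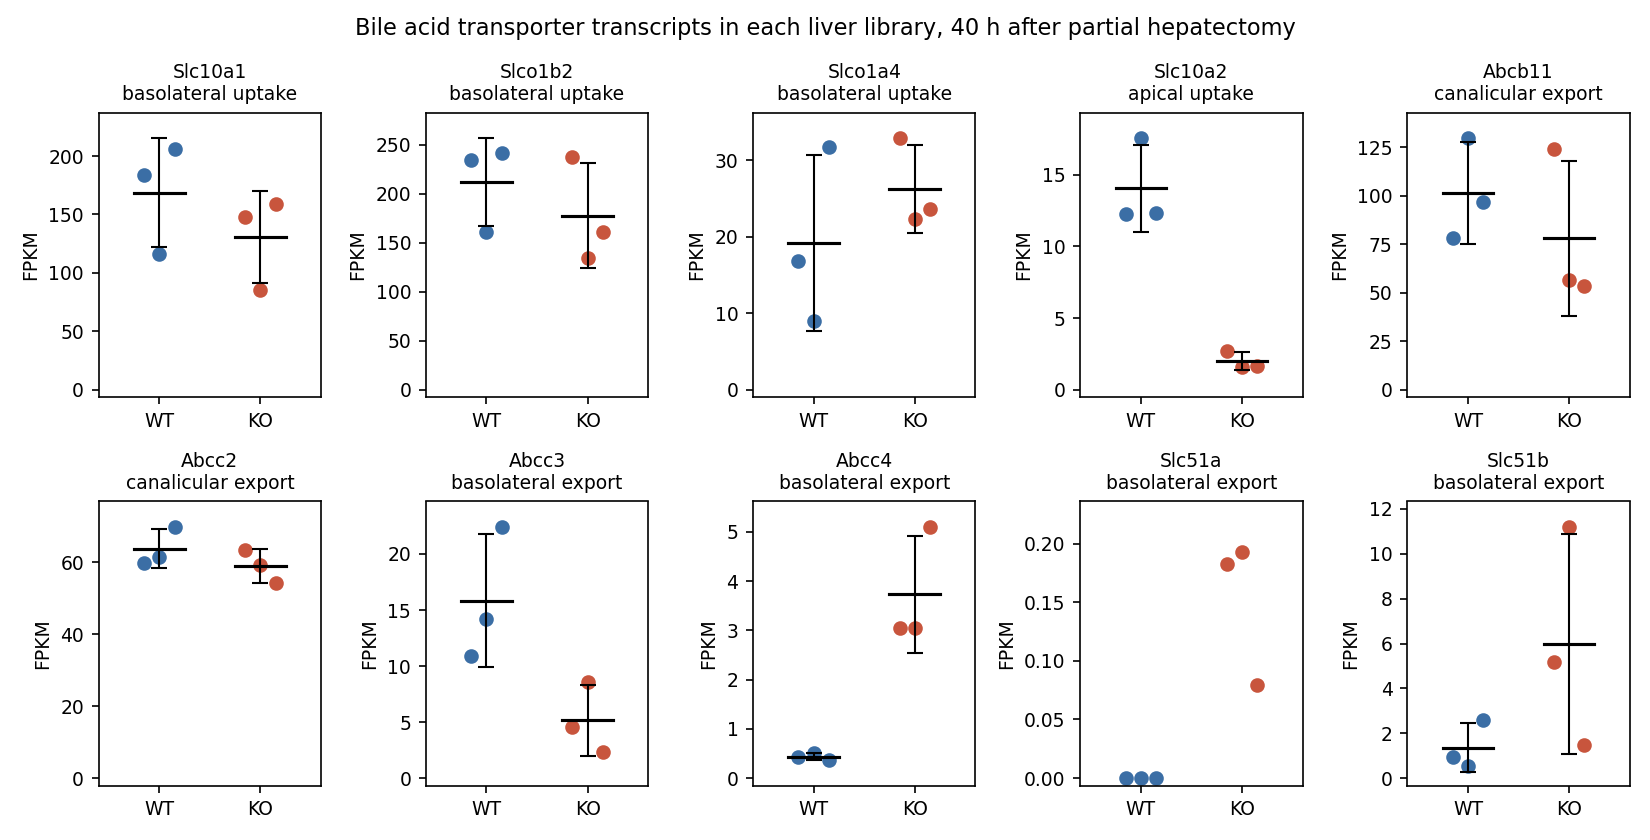
Each panel plots 1 transporter, with FPKM on a linear vertical axis and the WT and KO libraries as separate points in the order of their replicate numbers; bars are the mean and SD of 3 libraries and are left out for Slc51a, which is listed at 0 in WT. Slc10a2 and Abcc3 lay lower in all KO libraries, Abcc4 and Slc51a lay higher, and the other 6 overlapped.

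The order of levels was led by the major hepatocyte uptake and canalicular genes in both genotypes. In WT, mean FPKM descended from Slco1b2 (211.8) through Slc10a1 (168.6), Abcb11 (101.4), Abcc2 (63.7), Slco1a4 (19.2), Abcc3 (15.8), Slc10a2 (14.1), Slc51b (1.35) and Abcc4 (0.436) to Slc51a, listed at 0. The library ranges of Slco1b2 and Slc10a1 overlapped, as did those of Slc10a1 and Abcb11, of Slco1a4 and Abcc3, and of Abcc3 and Slc10a2, so these neighbours were not separated by their spread. In KO the first 5 places by mean were the same. Ranges overlapped there between Slco1b2 and Slc10a1, between Slc10a1 and Abcb11, and between Abcb11 and Abcc2. Abcb11 was above Abcc2 in KO replicate 1 (124 against 63.4 FPKM). It was slightly below Abcc2 in KO replicates 2 (56.4 against 59.2) and 3 (53.4 against 54.1). Below the first 5 came Slc51b (5.96), Abcc3 (5.17), Abcc4 (3.73), Slc10a2 (1.97) and Slc51a, with overlapping ranges between Slc51b and Abcc3 and between Abcc3 and Abcc4. Abcc2 varied least among libraries, with a coefficient of variation of 8.45% in WT and 7.91% in KO, and Slc51b most, at 81.1% and 82.3%.

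The 3 basolateral uptake genes were not separated between genotypes. Slc10a1 (chromosome 12, 80953185 to 80968079, mm10), which encodes the sodium-dependent taurocholate carrier NTCP, was 184, 116 and 206 FPKM in the WT livers against 147, 85.5 and 159 in the KO livers. In each genotype replicate 2 was the lowest, and the groups overlapped. The log2 difference was -0.37 (SE 0.32; 95% interval -1.14 to 0.40; adjusted p = 0.587). Slco1b2 (chromosome 6, 141629518 to 141686635), an organic anion transporter of hepatocytes, was 234, 160.3 and 241 FPKM in the WT livers against 237, 134 and 161 in the KO livers. Again replicate 2 was the lowest of each group, and KO replicate 1 lay inside the WT range. Its log2 difference was -0.27 (SE 0.28; 95% interval -0.94 to 0.39; adjusted p = 0.653).

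Slco1a4 (chromosome 6, 141805440 to 141856171), a second organic anion transporter that takes up bile acids and drugs, was 16.8, 8.99 and 31.8 FPKM in the WT livers against 32.9, 22.3 and 23.6 in the KO livers. The WT libraries spanned the whole KO range but for its highest value. KO minus WT gave 0.58 (SE 0.42; 95% interval -0.42 to 1.58; adjusted p = 0.520), and it ranged from 0.15 without WT replicate 2 to 1.01 without WT replicate 3. Slco1a4 lies in a cluster of related genes on chromosome 6, so reads shared with its relatives make its level uncertain.

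Slc10a2 (chromosome 8, 5085623 to 5105232) encodes ASBT, the apical sodium-dependent bile acid transporter, best known from the ileum and from bile duct cells. It was 12.2, 17.6 and 12.4 FPKM in the WT livers against 2.69, 1.57 and 1.64 in the KO livers. The lowest WT library was above the highest KO library, and the mean fell from 14.1 ± 3.04 to 1.97 ± 0.630 FPKM (SD, n = 3 each), a WT mean 7.14 times the KO mean. The log2 difference was -2.34 (SE 0.21; 95% interval -2.85 to -1.84; limma adjusted p = 0.0302), the 5th smallest p of the genes tested. Relative to the median of all genes it was -2.49, at percentile 0.456 of their differences. The size of the difference held with any 1 library left out (-2.51 to -2.18), but the adjusted p rose to 0.159, 0.0787 and 0.117 without WT replicates 1, 2 and 3 and to 0.168 without KO replicate 3. With no filter on low values, which tests more genes, it was 0.0564.

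In whole liver, fewer cells of a type and less RNA per cell cannot be told apart. The 15 cholangiocyte (bile duct cell) markers summed to 19.5 to 30.2 FPKM in WT and 32.5 to 40.5 in KO. Much of that sum was Spp1, the osteopontin gene, at 8.07, 15.6 and 18.9 FPKM in the WT livers against 14.0, 11 and 25.1 in the KO livers. Of these markers 7 were tested and 0 called in limma, where 0.119% of all genes tested were called. At an unadjusted p under 0.05, 2 were higher, Pkhd1 and Prom1, and 0 lower (11.2% and 3.99% of all genes). Cd24a came next (limma adjusted p = 0.529). Pkhd1, which encodes fibrocystin, averaged 0.840 ± 0.495 FPKM in WT and 1.90 ± 0.449 in KO (adjusted p = 0.305), and it reached the level required for a test only through KO. The duct keratin gene Krt19, picked with its values in view, was 1.82, 1.33 and 0.627 FPKM in the WT livers against 0.907, 0.588 and 1.90 in the KO livers. Sox9, a duct and progenitor transcription factor gene picked likewise, was 0.920, 1.83 and 0.744 in the WT livers against 0.0621, 0.371 and 0.242 in the KO livers, under the level required for a test. The filter thus kept Pkhd1 and left out Sox9, so the counts of higher and lower markers depend on it. The part of the cholangiocyte share in the Slc10a2 difference was not tested. Among 10 markers of intestinal epithelium, Fabp6, Sis, Cdx1 and Cdx2 were listed at 0 in all libraries. The remainder summed to 47.9 to 53.6 FPKM in WT and 56.0 to 184 in KO, nearly all of it Fabp2, a fatty acid binding protein gene, with a KO mean of 107 ± 67.7 FPKM (adjusted p = 0.355).

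The stretches in front of Slc10a2 and Abcc4 are shown because these genes had the lowest and the highest difference of the 10. They come from RefSeq on GRCm38.p6, both from the minus strand, at chr8:5105352-5105537 for Slc10a2 (positions -250 to -65 from its RefSeq start, leaving out 64 bases that GENCODE counts as transcript) and chr14:118706220-118706469 for Abcc4 (positions -250 to -1). Capitals mark every match on either strand to the motifs searched.
Slc10a2: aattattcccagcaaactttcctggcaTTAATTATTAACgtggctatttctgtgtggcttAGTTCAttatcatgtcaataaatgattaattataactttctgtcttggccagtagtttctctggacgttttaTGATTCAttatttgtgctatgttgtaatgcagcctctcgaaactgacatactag
Abcc4: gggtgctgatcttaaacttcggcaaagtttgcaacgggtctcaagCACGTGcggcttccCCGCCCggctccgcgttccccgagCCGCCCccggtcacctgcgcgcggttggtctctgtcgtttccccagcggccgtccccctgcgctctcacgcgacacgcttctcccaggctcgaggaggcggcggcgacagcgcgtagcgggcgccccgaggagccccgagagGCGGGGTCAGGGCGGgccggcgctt

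The 2 windows differed in composition as well as in motifs. Over the full 250 bases the Slc10a2 window was 34.4% G or C with 4 CpG dinucleotides, and the Abcc4 window 72.0% with 35, where the median of 32841 windows was 52.4% and 6. In front of Slc10a2 the capitals are an HNF1-type palindrome, a nuclear receptor half-site variant (AGTTCA, in 11.8% of all windows) and an AP-1 motif (TGANTCA, 6.75%). The palindrome (positions -223 to -212, its middle base left free in the search) was found in 0.0609% of all windows. The motifs were chosen after these letters were seen, so the rarity of a match is no support for a site. In front of Abcc4 they are an E-box (CACGTG, 6.02%), 3 GC boxes (GGGCGG, 32.7%) and an antioxidant response element core (TGACNNNGC, positions -25 to -17, 10.2%) that adjoins the third GC box. Windows were matched for 9 members, and Abcc3 was not matched. The nuclear receptor half-site AGGTCA, present in 14.0% of all windows, was in the windows of Slc10a1, Slco1b2, Abcb11, Abcc2, Slc51a and Slc51b and not in those of Slc10a2, Abcc4 and Slco1a4. The inverted repeat of that half-site spaced by 1 base, an arrangement bound by FXR, was in none of the 9 and in 0.00609% of all windows, nor did a looser form, with a free base in each half-site, match (0.0274%). The TATA box letters TATAAA (12.4%) were in the Slco1b2 window alone. Searches covered both strands. These are matches of letters in short windows, and binding was not measured.

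The canalicular pumps did not pass the test. Abcb11 (chromosome 2, 69238282 to 69342616), the bile salt export pump and the main route of bile acids into bile, was 77.9, 129.6 and 96.7 FPKM in the WT livers against 124, 56.4 and 53.4 in the KO livers. KO replicate 1 lay near the top of the WT range and the other KO libraries below it. KO minus WT gave -0.46 (SE 0.37; 95% interval -1.33 to 0.42; adjusted p = 0.557), and it ranged from -0.84 without KO replicate 1 to -0.24 without KO replicate 3. Abcc2 (chromosome 19, 43782308 to 43838218), which encodes MRP2, a canalicular pump for conjugated bilirubin and glutathione conjugates as well as divalent bile acids, was 59.9, 61.4 and 69.9 FPKM in the WT livers against 63.4, 59.2 and 54.1 in the KO livers. Its mean was 63.7 ± 5.39 in WT and 58.9 ± 4.66 in KO, a log2 difference of -0.11 (SE 0.16; 95% interval -0.48 to 0.26; adjusted p = 0.746), the narrowest interval of the 9 tested members.

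The basolateral exporters held the widest range of differences, from -1.52 for Abcc3 to 1.69 for Abcc4. Abcc3 (chromosome 11, 94343295 to 94392976), which encodes MRP3, a pump for glucuronides and bile salts, was 10.9, 14.2 and 22.4 FPKM in the WT livers against 4.58, 8.60 and 2.32 in the KO livers. All KO libraries lay below all WT libraries, and the WT mean of 15.8 ± 5.94 was 3.07 times the KO mean of 5.17 ± 3.18. The log2 difference was -1.52 (SE 0.42; 95% interval -2.52 to -0.53), but the adjusted p was 0.226 and the gene was not called. Leaving out 1 library gave differences from -1.91 to -1.14 and an adjusted p from 0.0586 to 0.511, the lowest without KO replicate 2.

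Abcc4 (chromosome 14, 118482692 to 118706219), which encodes MRP4, a pump that moves bile acids together with glutathione and also cyclic nucleotides, was 0.434, 0.515 and 0.359 FPKM in the WT livers against 3.04, 3.05 and 5.11 in the KO livers. Every KO library was above every WT library, with a mean of 0.436 ± 0.0778 in WT and 3.73 ± 1.19 in KO, 8.56 times as high. The log2 difference was 1.69 (SE 0.21; 95% interval 1.19 to 2.20), with an adjusted p of 0.0621 that missed the threshold. The gene passed the filter on low values through its KO libraries alone, so these values describe the difference and are no independent support for it. With a pseudocount of 0.1 in place of 1, which shrinks low genes less, the difference was 2.81 and the adjusted p 0.0462, and without KO replicate 2 the adjusted p was 0.0281. Over the other alternatives it ranged up to 0.257.

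Slc51a and Slc51b encode the 2 subunits of the organic solute transporter OSTα-OSTβ, a facilitated exporter that needs both. Slc51a (chromosome 16, 32475578 to 32487879) was listed at 0 in all WT libraries and at 0.183, 0.193 and 0.0792 FPKM in KO, levels that rest on a few reads and were not tested. Slc51b (chromosome 9, 65412753 to 65422773) was 0.936, 0.520 and 2.59 FPKM in the WT livers against 5.18, 11.2 and 1.496 in the KO livers. KO replicate 3 lay inside the WT range, the other KO libraries above it. KO minus WT gave 1.39 (SE 0.60; 95% interval -0.03 to 2.80; adjusted p = 0.333), and it ranged from 0.84 without KO replicate 2 to 1.99 without KO replicate 3. In the KO libraries Slc51b was 28.3, 58.2 and 18.9 times the level of Slc51a. Its locus overlaps that of Rasl12, which was listed at 0 in 5 libraries and at 0.0608 FPKM in KO replicate 3.

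**Figure D2:**
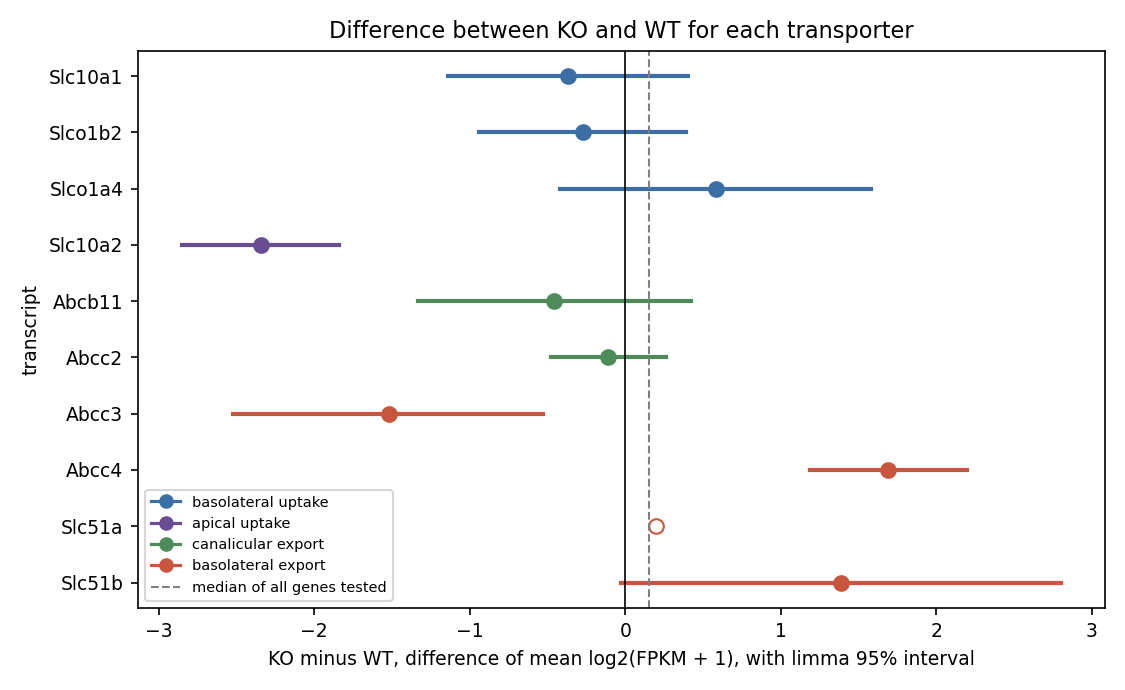
The horizontal axis is the difference of mean log2(FPKM + 1), KO minus WT, for each transporter on the vertical axis, coloured by role, with limma's 95% interval; the open point, Slc51a, was not tested, and the dashed line is the median of all genes tested (0.15). Slc10a2 and Abcc3 have intervals below 0, Abcc4 has one above 0, and the other 6 intervals include 0.

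The levels of Abcc3 and Abcc4 lay closer together in KO than in WT. The ratio of Abcc3 to Abcc4 FPKM was 25.2, 27.5 and 62.4 in the WT livers against 1.504, 2.82 and 0.455 in the KO livers, a quantity that does not depend on scaling between libraries. The groups were far apart, and in KO replicate 3 Abcc4 exceeded Abcc3. Abcc3 was lower and Abcc4 higher in every KO library, so the separation of their ratio follows from these and adds no support. The divisor, Abcc4, was only 0.359 to 0.515 FPKM in WT and passed the filter on low values through KO alone. The sum of both was 16.3 ± 5.89 FPKM in WT and 8.90 ± 2.39 in KO, and KO replicate 2, at 11.7, lay above WT replicate 1, at 11.4. Likewise the ratio of the family relatives Slc10a1 and Slc10a2 was 15.1, 6.61 and 16.6 in the WT livers against 54.7, 54.5 and 97.1 in the KO livers. It carries the Slc10a2 difference and adds no support to it.

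Uptake against export overlapped between the genotypes on summed levels and on medians. The genotypes were separated only on a mean over members, which carries the Slc10a2 and Abcc4 differences. The summed level of the 4 uptake genes over that of the 6 export genes was 2.98, 1.47 and 2.56 in the WT livers against 2.10, 1.76 and 2.97 in the KO livers, with all KO values inside the WT range. Of the summed FPKM of the 10 transporters, uptake genes took 68.8% ± 8.15 in WT libraries and 68.8% ± 5.59 in KO libraries (SD, n = 3 each), canalicular exporters 28.3% ± 7.98 and 27.9% ± 3.999, and basolateral exporters 2.92% ± 0.833 and 3.36% ± 2.32. These sums are carried by Slco1b2, Slc10a1 and Abcb11. Within single libraries, Slc10a1 was 2.36, 0.896 and 2.13 times Abcb11 in WT and 1.19, 1.52 and 2.98 times in KO, so Abcb11 exceeded Slc10a1 in WT replicate 2 alone.

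Giving each gene equal weight, the 4 uptake genes had a median log2 difference of -0.32 (-2.34 to 0.58) and the 6 export genes 0.05 (-1.52 to 1.69), beside 0.15 for all genes tested. Leaving out Slc10a2, the only apical carrier, the uptake median was -0.27. The export median changed sign with scaling, -0.04 after median-of-ratios rescaling and -0.02 after quantile normalization, and was 0.59 with a pseudocount of 0.1. Of the uptake genes 1 lay above the median of all genes and 3 below, and of the export genes 3 and 3. The median log2(FPKM + 1) of uptake minus that of export was 3.58, 3.28 and 3.17 in the WT livers against 3.59, 2.05 and 3.80 in the KO livers. On this median KO replicate 2 alone lay below the WT values, and the KO mean minus the WT mean was -0.19. With the mean over members in place of the median, the values were 2.94, 2.42 and 2.83 in the WT livers against 2.13, 1.37 and 2.28 in the KO livers, so that every KO library lay below every WT library, a difference of -0.80. The median-based difference was -0.52 without Slc10a2 and -0.43 with a pseudocount of 0.1, and the genotypes overlapped in both. The mean gives full weight to Slc10a2 and Abcc4, the members with the lowest and highest difference. Both were fully separated between the genotypes, so the separation on the mean carries their differences and adds no support to them. A mean without Slc10a2 was not computed. KO replicate 2 also had the lowest Slc10a1 and Slco1b2, the highest Slc51b and, among KO libraries, the highest Abcc3 and the lowest mitosis gene sum. The part of its cell cycle state in these values was not tested.

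**Figure D3:**
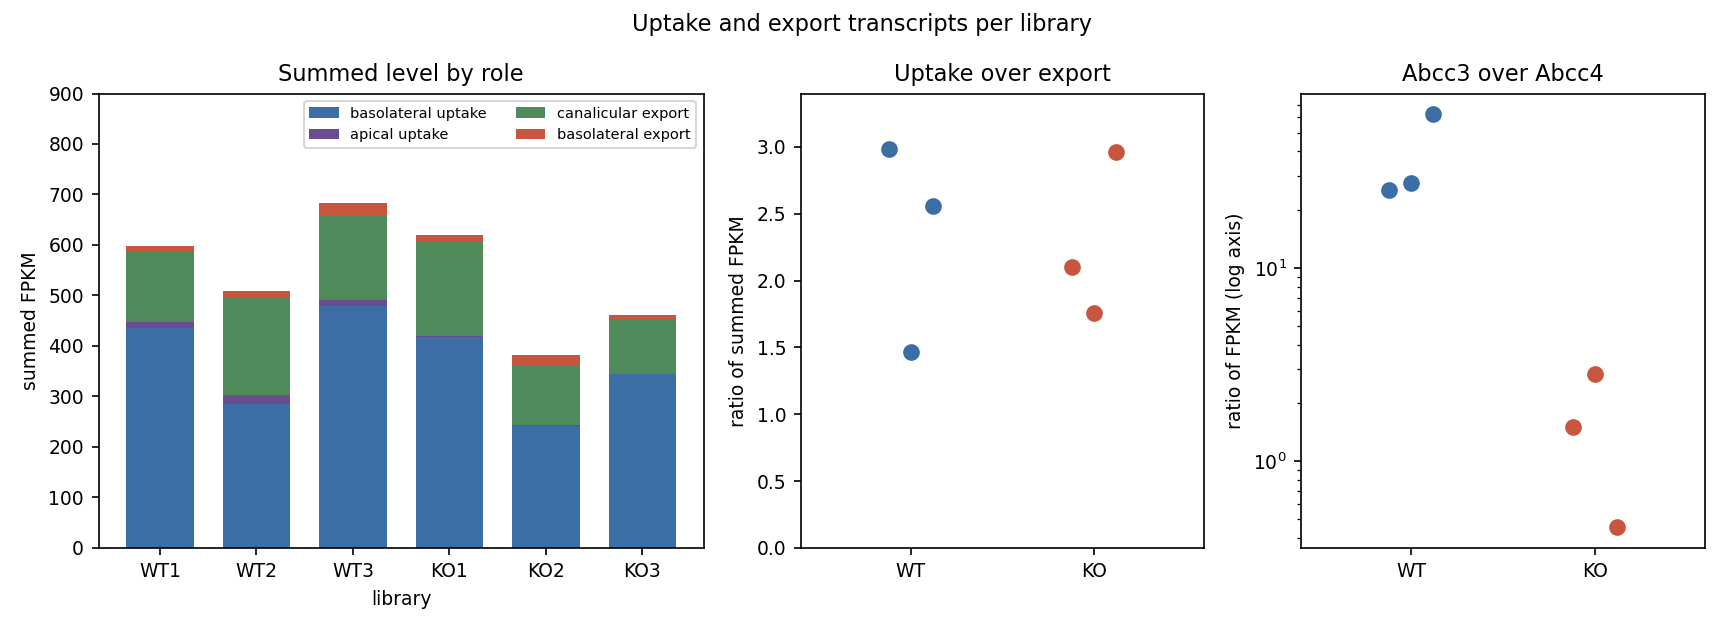
The left panel stacks the summed FPKM of the transporters by role for each library; the middle panel plots summed uptake over summed export FPKM and the right panel Abcc3 over Abcc4 FPKM on a log axis, 1 point per library. Uptake over export overlapped between genotypes (1.47 to 2.98 in WT), whereas Abcc3 over Abcc4 did not (25.2 or more in WT, 2.82 or less in KO). The latter follows from Abcc3 being lower and Abcc4 higher in every KO library.

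None of the wider bile acid genes in the 5 lists examined was called in limma, where 0.119% of all genes tested were called. At that share a count of 0 says nothing particular about these lists. These lists held 58 tested genes, 3 of them higher and 4 lower at an unadjusted p under 0.05. Of all genes tested, 11.2% were higher and 3.99% lower at that threshold. Among 17 genes of bile acid synthesis and conjugation, 1 was higher and 1 lower at an unadjusted p under 0.05, with a median log2 difference of -0.17. Cyp39a1, which encodes an oxysterol hydroxylase, averaged 19.7 ± 6.71 FPKM in WT and 8.54 ± 4.59 in KO (adjusted p = 0.306), Acox2, an oxidase of side chain shortening, 85.3 ± 8.40 and 120.3 ± 24.0 (adjusted p = 0.327), and the racemase gene Amacr 31.1 ± 4.52 and 39.7 ± 3.43 (adjusted p = 0.370). Cyp7a1, the rate-limiting enzyme of the classical route, picked with its values in view, was 35.8, 1.47 and 54.1 FPKM in the WT livers against 11.2, 11.4 and 44.4 in the KO livers. WT replicate 2, the WT library with the lowest Slc10a1, Slco1b2 and Slco1a4 and the highest Abcb11, was thus also the lowest in Cyp7a1.

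Of 13 tested genes of bile acid sensing and control, 2 were higher and 1 lower at an unadjusted p under 0.05 (11.2% and 3.99% of all genes). Nfe2l2, which encodes the stress-responsive transcription factor NRF2, was 14.7, 15.8 and 18.4 FPKM in the WT livers against 38.8, 32.6 and 28.7 in the KO livers (log2 difference 0.99, SE 0.17, adjusted p = 0.128). Klb, the co-receptor for intestinal FGF15, was 7.53 ± 1.53 and 12.4 ± 1.75 (adjusted p = 0.234), and Ppara 30.8 ± 3.91 and 21.8 ± 3.79 (adjusted p = 0.308). The FXR gene Nr1h4, picked likewise, was 35.2 ± 6.53 FPKM in WT and 33.4 ± 13.3 in KO, and its target Nr0b2, the gene of the repressor SHP, 20.4 ± 14.0 and 13.8 ± 4.79. Fgf15, an intestinal hormone, was listed at 0 throughout.

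Among the 8 tested genes of other organic ion uptake, 2 were lower and 0 higher at an unadjusted p under 0.05 (3.99% and 11.2% of all genes). Slc22a3 averaged 2.13 ± 1.40 FPKM in WT and 0.518 ± 0.321 in KO (adjusted p = 0.316), and the prostaglandin carrier gene Slco2a1 27.4 ± 10.3 and 13.3 ± 9.59 (adjusted p = 0.330). None of 12 other canalicular and bile-forming genes had an unadjusted p under 0.05, and their median log2 difference was -0.02. The 3 with the smallest p were Abcc6 (20.9 ± 1.55 FPKM in WT and 27.3 ± 3.21 in KO, adjusted p = 0.331), the breast cancer resistance protein gene Abcg2 (9.23 ± 2.91 and 5.77 ± 1.51, adjusted p = 0.333) and Abcb1b (3.97 ± 2.75 and 2.12 ± 0.668, adjusted p = 0.529). Among 8 genes that anchor or deliver canalicular transporters the count was also 0 in limma, with a median of 0.07. Msn was 7.85 ± 1.43 and 10.4 ± 1.57 (adjusted p = 0.378), Ezr 2.96 ± 0.458 and 2.19 ± 0.291 (adjusted p = 0.387) and Slc9a3r1, a scaffold gene, 74.1 ± 9.88 and 57.7 ± 10.1 (adjusted p = 0.406).

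**Figure D4:**
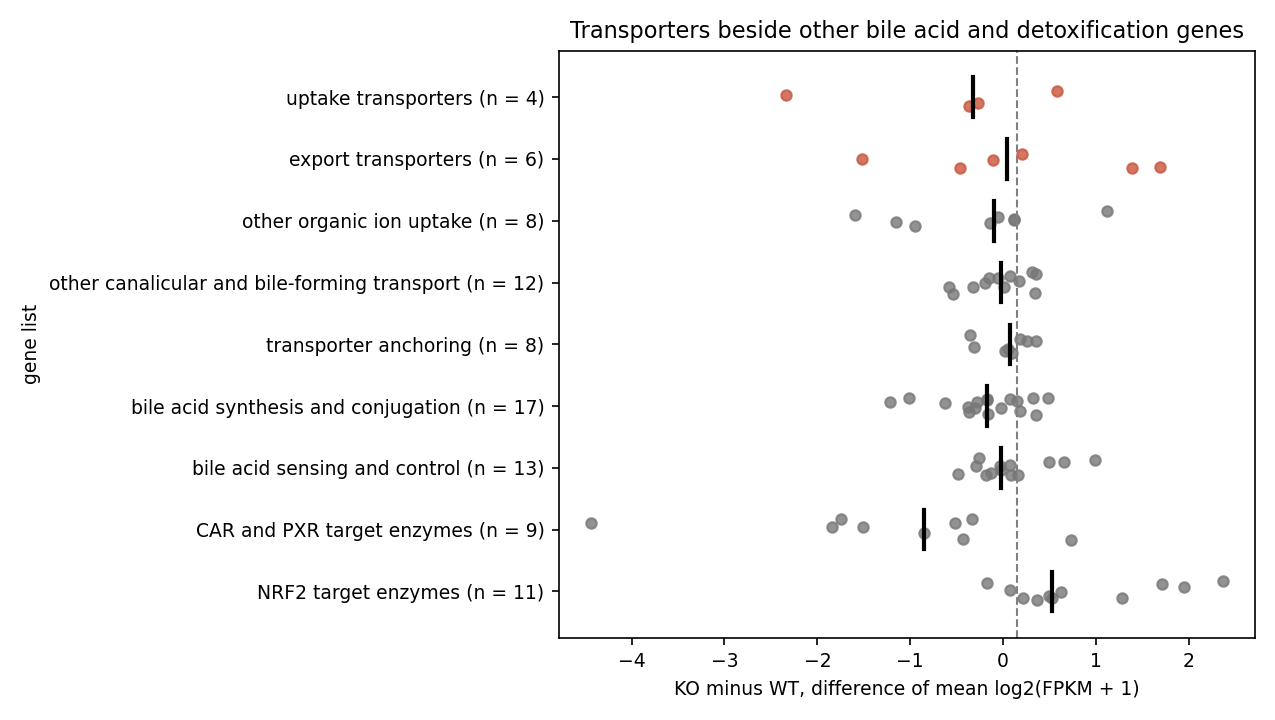
The horizontal axis is the difference of mean log2(FPKM + 1), KO minus WT, and each point is 1 gene of the list on the vertical axis; black bars are list medians, the dashed line is the median of all genes tested (0.15), and vertical scatter within a list carries no meaning. The transporters (2 top lists, all 10 members) spread from -2.34 to 1.69, while the tested genes of the canalicular and anchoring lists lie near the dashed line.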

How the data were processed

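FPKM values per gene locus were deposited by the authors as 1 table of 6 libraries, per the file headers; it is named as filtered, and neither that filter nor the program that computed FPKM is stated there. TopHat and edgeR, and both mm9 and mm10, appear in the submitters' processing notes with no role given. Of the loci with a single symbol, 99.4% overlapped the RefSeq GRCm38.p6 (mm10) model of that symbol, and positions are counted from 1. From 23847 loci, 312 marked LOWDATA in every library were left out. Because of this text the automatic check of the columns as FPKM could not be run; the remaining cells, read separately, ran from 0.001 to 29436.6 with 0 negative values and at most 0.017% whole numbers per library. The lowest value, 0.001, was set to 0. Nothing was rescaled in the primary analysis.

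Genes with a mean of at least 1 FPKM over the 6 libraries (10956) were analysed as log2(FPKM + 1) in limma 3.58.1 (R 4.3.3; eBayes with a trend), genotype as the only term, two-sided, with Benjamini-Hochberg adjustment over all of them; adjusted p under 0.05 was called. Fold changes of genes near or under 1 FPKM are understated on this scale. The fit was tested on simulated data. The members and the lists (bile acid pathway, CAR and PXR targets, NRF2 targets, cell types, mitosis) were chosen with earlier results of these data known, and motifs after the promoter letters were seen. Named genes are the members, Arid1a and the 3 smallest p of each list; others are said to be chosen later. Some genes of the lists are counted but not reported here by name. Alternatives were another pseudocount, other filters, 2 rescalings, a replicate block and leaving out each library. Relative depth was the shift at which ratios of values under 0.3 FPKM to WT replicate 1 most often met ratios of up to 6 whole reads, within 0.02 on the log2 scale (61.7% to 65.9% of ratios).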

Additional observations from a re-analysis of the deposited data

How the results depend on the processing

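The number of genes called (13, of which 2 higher and 11 lower in KO) was 18 with a pseudocount of 0.1 (5 and 13), 16 after median-of-ratios rescaling (1 and 15) and 14 after quantile normalization (0 and 14). It was 6 with no filter, 5 with a filter at 5 FPKM, and 47 with the replicate block. With 1 library left out it ranged from 0 (without WT replicate 1, where limma left 940 genes at an unadjusted p under 0.05) to 211 (without KO replicate 2, 171 of them higher). The count of members called lower was 0 with no filter and 0 to 1 with 1 library left out, and the count called higher was 1 with a pseudocount of 0.1 and 0 to 1 with 1 library left out. All log2 differences of the 10 members kept their sign under every alternative run. The replicate block changed no member's call. Deviations of same-numbered WT and KO libraries correlated at -0.08, 0.16 and 0.16, so the numbers were not taken as pairs. The median of the export genes was 0.59 with a pseudocount of 0.1, which gives the low genes Abcc4, Slc51a and Slc51b more weight. Absolute depth is unknown, and Slc51a was too low for a test.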

Other observations

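Genes of 2 detoxification programmes, which are known to share regulators with basolateral exporters, had list medians on opposite sides of the median of all genes. None of their genes was called in limma, where 0.119% of all genes tested were called. Of 11 tested NRF2 target enzymes, 6 were higher in KO and 0 lower at an unadjusted p under 0.05 (11.2% and 3.99% of all genes), with a median log2 difference of 0.53 beside 0.15 for all genes. Gsta1 (0.303 FPKM in WT and 4.199 in KO on average) and Gsta2 are among the 6 and passed the filter on low values only through KO, so the count is a description and no support. The epoxide hydrolase gene Ephx1 was 62.1, 113 and 78.9 FPKM in the WT livers against 214.5, 204 and 184 in the KO livers (adjusted p = 0.136). Gsta2 was 0.0453, 0.491 and 2.05 in the WT livers against 8.74, 3.41 and 14.2 in the KO livers (adjusted p = 0.182), and Gstm3 16.6 ± 2.32 and 79.8 ± 50.1 (adjusted p = 0.215). Both are glutathione transferase genes with close relatives, so their reads are uncertain. In all 3 genes the lowest KO library lay above the highest WT library, as in 16.7% of all genes tested. These 3 genes had the smallest p of the list, so their separation is no support. The summed level of the list was 217 to 341 FPKM in WT and 446 to 583 in KO.

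Of 9 tested target enzymes of the xenobiotic receptors CAR and PXR, 1 was higher and 3 lower at an unadjusted p under 0.05 (11.2% and 3.99% of all genes). Their median log2 difference was -0.85, beside 0.15 for all genes tested. Cyp3a11 was 516, 548 and 443 FPKM in the WT livers against 327, 87.6 and 188 in the KO livers (adjusted p = 0.248), and the P450 reductase gene Por 184 ± 61.0 and 99.3 ± 17.3 (adjusted p = 0.271). Cyp3a41a, which has a near-identical copy in the table, was 197, 64.6 and 112 in the WT livers against 23.6, 0.224 and 3.73 in the KO livers (adjusted p = 0.184). KO replicate 2 had the lowest value of both Cyp3a genes.

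Lists of further cell types gave 0 called genes in limma, where 0.119% of all genes tested were called. The markers summed to 69.0 to 95.01 FPKM in WT and 76.7 to 131.7 in KO for Kupffer cells and macrophages, to 50.5 to 73.9 and 53.6 to 78.2 for endothelium, and to 44.0 to 67.9 and 49.4 to 61.2 for stellate cells. At an unadjusted p under 0.05, the scavenger receptor gene Marco (7.98 ± 2.52 FPKM in WT and 18.8 ± 8.06 in KO), the VE-cadherin gene Cdh5 (5.89 ± 1.13 and 8.18 ± 0.506) and the stellate gene Reln (9.63 ± 0.817 and 17.8 ± 3.76) were higher, and Ecm1 (26.0 ± 4.67 and 16.3 ± 4.88) was lower, with adjusted p from 0.178 to 0.311. The macrophage, endothelial and stellate lists held 8, 9 and 8 tested genes. Of all genes tested, 11.2% were higher and 3.99% lower at that unadjusted threshold. The other genes with the smallest p of these lists were Cd68 and Csf1r, Pecam1 and Kdr, and Lrat, and those of the hepatocyte list Serpina1a, Apoa1 and Asgr1, with adjusted p from 0.353 to 0.614. Of the mitosis genes, Ube2c (4.51, 1.22 and 4.49 FPKM in the WT livers against 65.2, 3.08 and 116.8 in the KO livers) was the only one at an unadjusted p under 0.05. Aurka and Cdc20 followed, at 1.88 ± 0.875 and 2.41 ± 1.49 FPKM in WT against 18.1 ± 16.4 and 35.5 ± 35.9 in KO.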
